A study of Homo sapiens with 9 samples.

Results

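*NODAL*, its co-receptor *TDGF1*, its transcriptional partner *FOXH1* and its secreted antagonists *CER1*, *LEFTY1* and *LEFTY2* were followed in single cells of human extra-embryoids (hEEs). These 6 of the 36601 genes in the count tables were chosen by symbol, each with 1 row in both tables: *NODAL* (ENSG00000156574), *TDGF1* (ENSG00000241186), *FOXH1* (ENSG00000160973), *CER1* (ENSG00000147869), *LEFTY1* (ENSG00000243709) and *LEFTY2* (ENSG00000143768). They were measured on D4 and D6 in cells that met an embryonic gate or a hypoblast gate, both set on counts of other genes.

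Nodal is a secreted ligand of the TGFβ family that binds activin receptors together with an EGF-CFC co-receptor such as TDGF1 (Cripto). The receptors activate SMAD2 and SMAD3, which act with FOXH1 on target genes that include NODAL itself and the genes of its own inhibitors. CER1 and the LEFTY proteins are secreted and block the ligand or its access to the receptors. In the mouse embryo the anterior visceral endoderm (AVE), a part of the hypoblast-derived endoderm, secretes Cer1 and Lefty1, and Nodal is needed for pluripotency, gastrulation and the left-right axis.

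hEEs are aggregates of human embryonic stem cells in which an inner compartment resembling the epiblast and an outer one resembling the hypoblast form without added inducers. All cells came from ESI017, a wild-type human embryonic stem cell line kept on mouse feeder cells (CF-1 MEFs) in hEP media, with no treatment. Aggregates were grown in spontaneous differentiation medium and from D3 in mIVC2, structures with both compartments were chosen by eye, and independent cultures were pooled into 1 library per day, D4 or D6. The design therefore holds 1 cell line and 2 libraries, so that the day and the library cannot be told apart, cells are not replicates, and no test between days or gates was possible.

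The 10x 3′ libraries held 151712246 UMIs (unique molecular identifiers, each counting 1 captured RNA) in 10943 cells on D4 and 150320228 in 11483 cells on D6. Cells between a lower and an upper UMI limit, with at most 10% mitochondrial UMIs, were kept, 9151 on D4 and 10097 on D6, and 27 barcodes were shared by kept cells of both libraries. The embryonic gate (*POU5F1* of at least 5 UMIs, *SOX2* of at least 1, *FN1* of at most 2) held 3716 cells on D4 and 5054 on D6. The hypoblast gate (*FN1* of at least 3, *SOX2* at 0, *POU5F1* of at most 5) held 4061 and 3567 cells, and 1374 and 1476 cells met neither. Median UMIs per cell were 15158 and 14226 in the embryonic gate and 11012 and 10902 in the hypoblast gate, where kept cells held from 3439 to 27395 UMIs on D4 and from 3432 to 27412 on D6. The gates matched markers they did not use: all 6 embryonic markers were more than 2-fold higher in the embryonic gate on both days, and 6 of 7 hypoblast markers on D4 and 7 of 7 on D6 were more than 2-fold higher in the hypoblast gate.

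Levels are UMIs of a gene summed over a gate, per 1000000 of all UMIs there (counts per 1000000, CPM), with exact 95% Poisson intervals in brackets. On this scale the 1 hypoblast marker within 2-fold on D4, *PDGFRA*, was at 7.30 in the hypoblast gate against 5.12 in the embryonic gate. Shares of cells carry exact binomial intervals and log2 ratios exact conditional binomial intervals. All of them cover counting error only, since there was no replicate library. Shares of cells were also computed after every cell was thinned to the same number of UMIs, the lower limit of the filter. As 3′ tag counts favour some genes over others, levels are compared between groups of cells and not between genes, except within the LEFTY pair.

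None of the 6 genes was highest in the embryonic gate. On D4, 3 of the 6 (*NODAL*, *CER1* and *LEFTY2*) were more than 2-fold lower there than in the hypoblast gate, and on D6 4 were (these and *LEFTY1*), while 0 were more than 2-fold higher on either day. Over all 20214 genes with at least 10 UMIs on D4, 16.5% were more than 2-fold higher and 15.2% more than 2-fold lower in the embryonic gate. On D6 the shares of 20708 genes were 22.2% higher and 14.7% lower. Between days, 4 of the 6 genes (*NODAL*, *CER1*, *LEFTY1* and *LEFTY2*) were more than 2-fold lower on D6 in the embryonic gate, and 2 (*CER1* and *LEFTY2*) in the hypoblast gate, with 0 more than 2-fold higher in either. Of all genes, 5.43% were more than 2-fold higher and 2.02% lower on D6 in the embryonic gate, and 6.4% higher and 6.02% lower in the hypoblast gate. *TDGF1* and *FOXH1* stayed within 2-fold in all 4 comparisons.

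**Figure D1:**
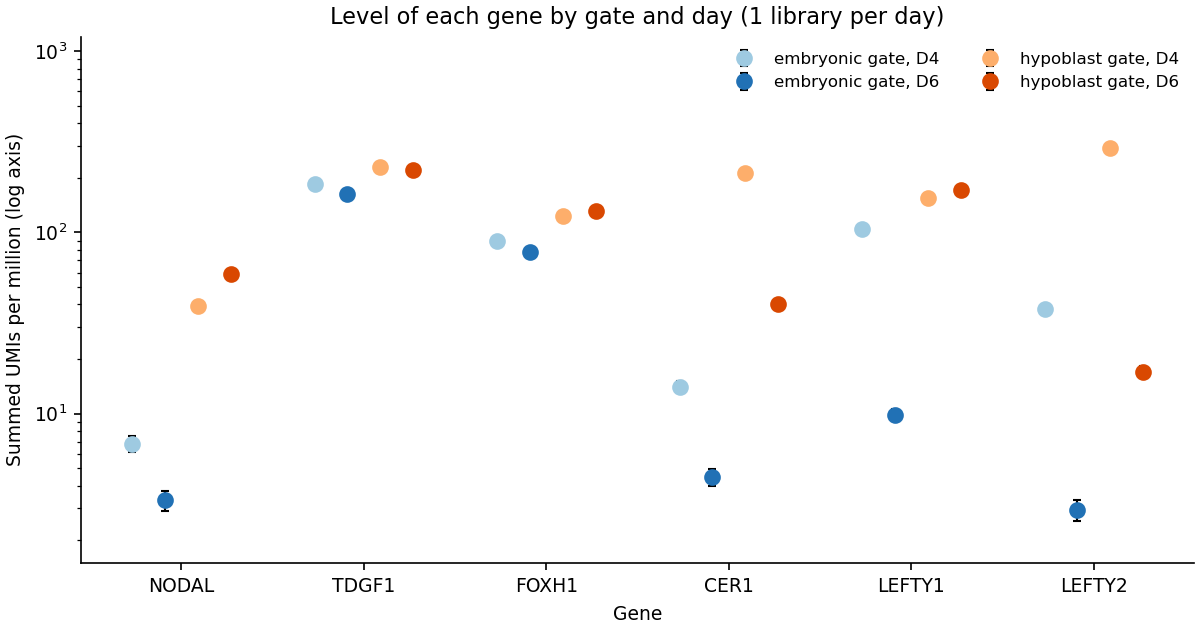
Level of each gene (CPM, log axis) in the embryonic and the hypoblast gate of the D4 and the D6 library, with exact Poisson 95% intervals as error bars. *NODAL* sits at 6.80 and 3.31 in the embryonic gate and at 39.3 and 59.0 in the hypoblast gate, whereas *TDGF1* stays between 164 and 228 in all 4 groups.

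The promoters of the ligand and of the antagonist *CER1* are shown because only these 2 of the 6 genes could be matched to a promoter sequence. They are the 250 bases before an annotated start in RefSeq on GRCh38.p14, whose table held 2 of the 6 genes. For *NODAL* this window is chr10:70441682-70441931 and for *CER1* chr9:14722734-14722983, both on the minus strand. The *NODAL* window lies inside the annotated span of the gene (chr10:70431936-70447951), and the *CER1* window ends next to its gene (chr9:14717326-14722733). Capitals mark matches on either strand to the SMAD box CAGAC and to TGTNNATT, a relaxed form of the *FOXH1* motif TGTGGATT, and these motifs do not overlap each other here.
NODAL: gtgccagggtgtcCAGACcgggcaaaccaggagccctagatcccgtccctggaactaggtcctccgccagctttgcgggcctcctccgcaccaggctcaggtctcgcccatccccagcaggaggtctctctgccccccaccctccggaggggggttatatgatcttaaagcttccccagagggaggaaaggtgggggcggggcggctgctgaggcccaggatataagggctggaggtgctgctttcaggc
CER1: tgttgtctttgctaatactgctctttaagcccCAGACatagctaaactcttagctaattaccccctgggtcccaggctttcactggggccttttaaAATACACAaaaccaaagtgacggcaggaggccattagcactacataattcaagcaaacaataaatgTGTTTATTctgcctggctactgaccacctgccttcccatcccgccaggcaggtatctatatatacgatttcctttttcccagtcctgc
The *NODAL* window had a GC content of 65.2% and held 1 CAGAC, 237 to 233 bases before the start. The *CER1* window, with a GC content of 45.2%, held 1 CAGAC at 218 to 214 bases and 2 matches to TGTNNATT, at 154 to 147 bases on the opposite strand and at 88 to 81 bases. Neither held TGTGGATT. Of 35116 promoters of this length, 38.0% held CAGAC, 9.88% TGTNNATT and 0.709% TGTGGATT, so that the matches describe the letters only and say nothing of binding.

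*NODAL*, the ligand, was carried mainly by cells of the hypoblast gate. Its level on D4 was 6.80 CPM [6.14, 7.51] in the embryonic gate and 39.3 [37.5, 41.1] in the hypoblast gate, and on D6 it was 3.31 [2.91, 3.75] and 59.0 [56.7, 61.3]. The hypoblast gate was thus 5.77-fold higher on D4 (log2 ratio of embryonic over hypoblast −2.53 [−2.69, −2.37]) and 17.8-fold higher on D6 (−4.15 [−4.35, −3.96]). The gap widened from both sides, with a D6 over D4 log2 ratio of −1.04 [−1.27, −0.80] in the embryonic and 0.59 [0.50, 0.67] in the hypoblast gate. Among cells with at most 5% mitochondrial UMIs the embryonic ratio was −0.80, within 2-fold. At least 1 *NODAL* UMI was found in 6.35% and 3.19% of embryonic-gate cells and in 21.5% and 31.3% of hypoblast-gate cells on D4 and D6. After thinning these shares were 1.83%, 1.01%, 9.58% and 14.2%, in the same order. The transcript was uneven among hypoblast-gate cells, as the 10% of cells with the most *NODAL* held 74.0% of its UMIs on D4 and 61.2% on D6.

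*TDGF1*, the co-receptor anchored in the membrane, was found in most cells of both gates. Its level was 186 CPM [182, 189] in the embryonic and 228 [224, 232] in the hypoblast gate on D4, and 164 [161, 166] and 221 [216, 225] on D6. The hypoblast gate was 1.23-fold and 1.35-fold higher, with log2 ratios of −0.30 [−0.33, −0.26] and −0.43 [−0.47, −0.39]. Between 82.8% and 89.3% of cells held a UMI in each gate and day, and between 40.9% and 51.8% after thinning. D6 over D4 log2 ratios were −0.18 [−0.22, −0.15] and −0.05 [−0.09, −0.01] in the embryonic and hypoblast gates. The top 10% of hypoblast-gate cells held 27.8% of *TDGF1* UMIs on D4 and 29.3% on D6.

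*FOXH1*, the DNA-binding partner of the SMADs, followed a similar course. It was at 89.0 CPM [86.6, 91.5] and 123 [120, 126] in the embryonic and hypoblast gates on D4 and at 78.0 [76.0, 80.0] and 131 [128, 135] on D6. The log2 ratio of embryonic over hypoblast gate was −0.47 [−0.52, −0.41] on D4 and −0.75 [−0.81, −0.70] on D6, so that the hypoblast gate was higher on both days but within 2-fold. Between 65.4% and 73.1% of cells held a UMI, and between 22.2% and 34.3% after thinning. The day ratios were small and of opposite sign, −0.19 [−0.25, −0.14] in the embryonic and 0.09 [0.04, 0.15] in the hypoblast gate.

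*CER1*, an antagonist secreted by the AVE in the mouse, was concentrated in few cells of the hypoblast gate. Its level on D4 was 14.0 CPM [13.1, 15.05] in the embryonic and 213 [209, 217] in the hypoblast gate, 15.15-fold apart (log2 ratio −3.92 [−4.03, −3.82]). This ratio was −4.75 with stricter gates and −3.16 with the gate limits applied to thinned cells. On D6 it was 4.46 [4.00, 4.97] and 40.2 [38.3, 42.2], 9.01-fold apart (−3.17 [−3.345, −3.00]). *CER1* was lower on D6 in both gates, with a D6 over D4 log2 ratio of −1.65 [−1.84, −1.47] in the embryonic and −2.40 [−2.48, −2.33] in the hypoblast gate. In the embryonic gate of D6 1 cell held 41.0% of all *CER1* UMIs, and the level without it was 2.63 CPM. With stricter gates the D6 log2 ratio between gates was −5.13, and with the gate limits applied to thinned cells the embryonic day ratio was −3.33. UMIs of *CER1* were found in 22.7% of hypoblast-gate cells on D4 and 5.86% on D6, and in 5.92% and 1.44% of embryonic-gate cells. Hypoblast-gate cells with the transcript carried 11.0 UMIs on average on D4 and 8.04 on D6, and at most 249 and 185. The top 10% of cells held 93.3% of the *CER1* UMIs of that gate on D4 and 100% on D6. The D6 value was fixed in advance, as only 5.86% of cells held a UMI.

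*LEFTY1* and *LEFTY2* encode near-identical antagonists and lie next to each other on chromosome 1, at chr1:225886282-225889146 and chr1:225936603-225941220 on GRCh38.p14, with 47456 bases between them. Reads of such a pair can be split wrongly, so their transcripts in GENCODE v44lift37 were compared. The coding sequences have 1101 bases each and are 97.2% identical, with 31 differences. The longest run shared by both transcripts was 300 bases, but after the stop codon it was 12 bases. Of the 60-base windows in the last 500 bases, where 3′ libraries read, 0% were shared, against 28.3% and 22.6% over the whole *LEFTY1* and *LEFTY2* transcripts. Reads from the 3′ ends can therefore be told apart, though read positions were not analysed here.

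*LEFTY1* was the antagonist that both gates held on D4 and that only the hypoblast gate held at a like level on D6. It was at 105 CPM [102, 107] in the embryonic and 154 [150.5, 157.5] in the hypoblast gate on D4, a 1.47-fold difference (log2 ratio −0.56 [−0.61, −0.51]). With the gate limits applied to thinned cells this ratio was −0.04, a move of less than 1.5-fold. On D6 the levels were 9.84 [9.14, 10.6] and 172 [168, 176], 17.5-fold apart (−4.13 [−4.24, −4.02]). In the embryonic gate *LEFTY1* was 10.7-fold lower on D6 than on D4 (−3.41 [−3.52, −3.30]), whereas in the hypoblast gate the log2 ratio was 0.16 [0.11, 0.21]. The share of cells with a UMI was 21.7% and 5.46% in the embryonic and 22.85% and 29.2% in the hypoblast gate on D4 and D6, and after thinning 12.3%, 2.04%, 14.7% and 18.3%.

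*LEFTY2* was lower on D6 in both gates. Its level on D4 was 37.9 CPM [36.3, 39.5] in the embryonic and 293 [288, 298] in the hypoblast gate, 7.745-fold apart (log2 ratio −2.95 [−3.02, −2.89]). On D6 it was 2.93 [2.55, 3.34] and 16.9 [15.7, 18.2], 5.78-fold apart (−2.53 [−2.76, −2.31]). The D6 level was 12.9-fold lower in the embryonic (−3.69 [−3.90, −3.49]) and 17.3-fold lower in the hypoblast gate (−4.11 [−4.23, −4.01]). With the gate limits applied to thinned cells the D6 ratio between gates was −1.61 and the day ratios −4.33 (embryonic) and −5.17 (hypoblast), and without the *POU5F1* limits the embryonic day ratio was −3.05. A *LEFTY2* UMI was found in 49.25% of hypoblast-gate cells on D4 and 4.26% on D6, and in 17.6% and 2.10% of embryonic-gate cells. The make-up of the pair in the hypoblast gate differed between days: *LEFTY2* gave 65.6% [64.9, 66.2] of all LEFTY UMIs on D4 and 8.96% [8.34, 9.61] on D6. In the embryonic gate its share was 26.6% [25.6, 27.5] on D4 and 22.9% [20.3, 25.7] on D6, with intervals that overlap slightly. Of *LEFTY1*-positive cells of the hypoblast gate, 65.4% held *LEFTY2* on D4 and 10.7% on D6. The reverse share went the other way: of *LEFTY2*-positive cells there, 30.35% held *LEFTY1* on D4 and 73.7% on D6.

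**Figure D2:**
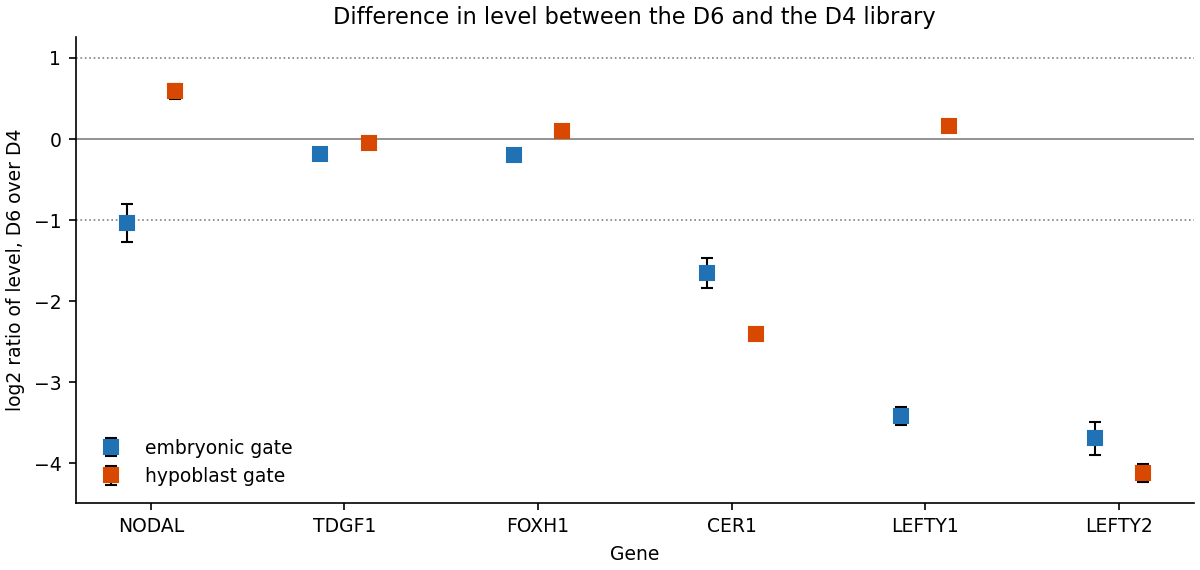
Log2 ratio of the D6 over the D4 level of each gene in the embryonic and the hypoblast gate, with exact conditional binomial 95% intervals, a solid line at no difference and dotted lines at 2-fold. *CER1* and *LEFTY2* lie below the lower dotted line in both gates, and *NODAL* and *LEFTY1* lie below it in the embryonic gate only (−1.04 and −3.41 against 0.59 and 0.16).

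RNA released from other cells gives some UMIs in every droplet, so the low levels in the embryonic gate were set beside those of hypoblast transcripts. *APOA1*, a hypoblast marker, had 1.28% of its hypoblast-gate level in the embryonic gate on D4 and 0.752% on D6, with a UMI in 18.2% and 61.6% of embryonic-gate cells. *FOXA2*, another one, had 2.60% and 0.884%. The share was higher for *SOX17*, at 12.1% and 13.5%, and for *PDGFRA*, at 70.2% and 8.03%, and whether these transcripts were carried over or made in the gated cells was not tested. At the *APOA1* share, *NODAL* would have been at 0.504 and 0.443 CPM in the embryonic gate on D4 and D6, against 6.80 and 3.31 measured. For *CER1* the same share gave 2.73 and 0.302 CPM against 14.0 and 4.46 measured. For *LEFTY1* it gave 1.98 and 1.29 against 105 and 9.84, and for *LEFTY2* 3.76 and 0.127 against 37.9 and 2.93. All 4 measured levels were thus above the level at the *APOA1* share, the lowest of the 7 hypoblast markers on both days. At the *SOX17* share the comparison came out otherwise: *CER1* would have been at 25.8 CPM on D4 and 5.42 on D6 and *NODAL* at 4.76 and 7.94, and *LEFTY1* at 18.7 and 23.2 and *LEFTY2* at 35.5 and 2.28. The measured level was below this for *CER1* on both days and for *NODAL* and *LEFTY1* on D6, so that the reading of these low levels depends on the marker used. Cells at the edge of the gate held more of them, since embryonic-gate cells with 2 *FN1* UMIs (167 cells on D4) had *NODAL* at 15.5 CPM and *LEFTY2* at 92.3, and the 54 cells just outside, with 3 *FN1* UMIs, had 19.2 and 180.5.

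Single cells showed that *NODAL* and its antagonists were often carried by the same cells. After thinning, 75% [63.0, 84.7] of the 68 *NODAL*-positive cells of the embryonic gate on D4 held a UMI of at least 1 of the 3 antagonists, against 15.05% [13.9, 16.25] of the other cells. In the hypoblast gate of D4 this was 65.55% [60.6, 70.3] of 389 cells against 36.85%. On D6 it was 17.65% [8.40, 30.9] of 51 cells against 2.86% in the embryonic gate, and 38.3% [34.1, 42.7] of 506 cells against 17.9% in the hypoblast gate. *NODAL*-positive cells were thus the richer in antagonists in both gates on both days. Without thinning the shares were 86.9% against 27.3% and 82.0% against 54.8% on D4, and 29.2% against 7.30% and 52.15% against 23.5% on D6, embryonic before hypoblast gate.

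Of the 15 pairs among the 6 genes, 6 in the embryonic and 4 in the hypoblast gate of D4 were found together in more than 2 times as many thinned cells as the product of their single shares gives. On D6 the numbers were 6 and 3. In the embryonic gate of D4 these were the 6 pairs among *NODAL*, *CER1*, *LEFTY1* and *LEFTY2*, from 4.17 times the product for *LEFTY1* with *LEFTY2* (126 cells) to 8.6 times for *NODAL* with *CER1* (14 cells). In the hypoblast gate of D4 the highest were *CER1* with *LEFTY1* (268 cells, 3.34 times) and *NODAL* with *LEFTY1* (185 cells, 3.24 times). *LEFTY1* was found in 47.6% of *NODAL*-positive and 11.2% of other cells there. On D6 the *CER1* with *LEFTY2* pair stood at 10.1 times the product in the hypoblast gate, on 23 cells, and the embryonic-gate pairs rested on 1 to 6 cells each. *TDGF1* and *FOXH1* met as often as their single shares give, in 724 hypoblast-gate cells of D4 (1.03 times) and 431 embryonic-gate cells (1.00 times). A multiple cannot exceed the inverse of the larger of the 2 single shares. After thinning *TDGF1* was in 51.8% (D4) and 50.3% (D6) of hypoblast-gate cells, so none of its pairs could pass 2 times there. In the embryonic gate (43.9% and 40.9%) the limit was little above 2, so the counts of pairs partly reflect how often each gene was detected. Depth varies within a gate before thinning, and cells of 1 gate share a library, so these multiples are descriptions.

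**Figure D3:**
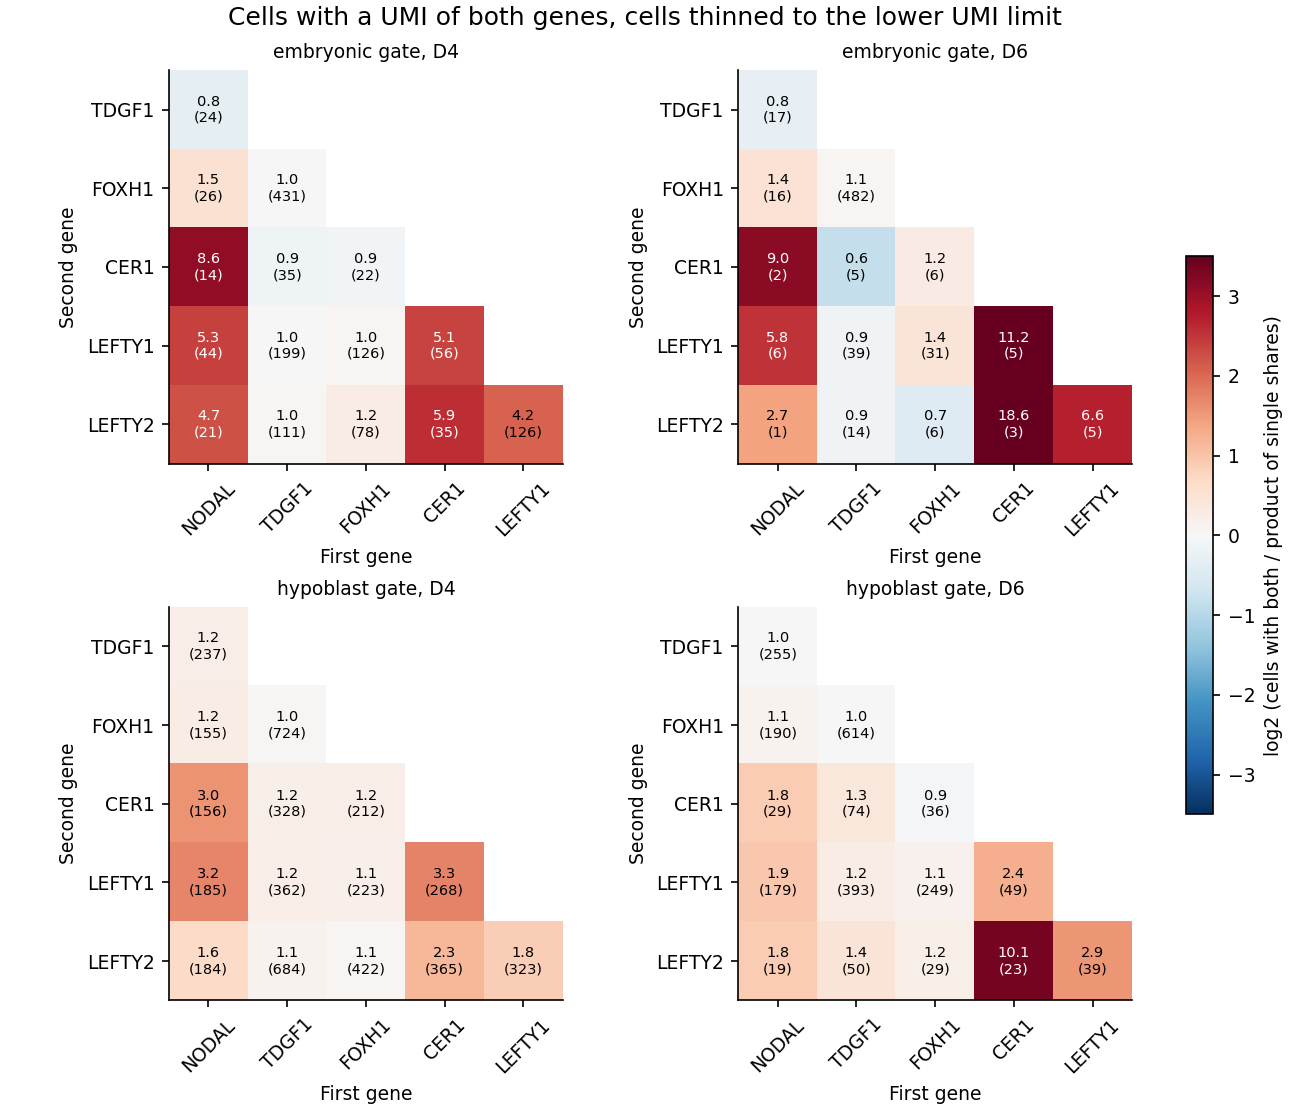
Ratio of the share of cells holding a UMI of both genes of a pair to the product of the 2 single shares, in 4 panels for gate and day, after thinning each cell to the lower UMI limit. Each field gives the ratio with the number of cells holding both in parentheses, and its colour is the log2 of the ratio. The pairs among *NODAL*, *CER1*, *LEFTY1* and *LEFTY2* stand above 1 in every panel, and *TDGF1* with *FOXH1* stays near 1 (1.03 in the hypoblast gate of D4).

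Cells of the hypoblast gate were next grouped by their *CER1* count. On D4 the groups with 0, 1 to 2, 3 to 9 and 10 or more *CER1* UMIs held 3139, 495, 195 and 232 cells, and *NODAL* was at 20.9, 45.25, 82.7 and 201 CPM in them. For *LEFTY1* the same groups gave 36.9, 133, 338.5 and 1383 CPM, and for *LEFTY2* 101, 300.3, 634 and 2196. Both LEFTY genes and *NODAL* thus went up with *CER1* through every group. Between cells with 10 or more *CER1* UMIs and cells without, the fold was 37.5 for *LEFTY1*, 21.7 for *LEFTY2*, 9.61 for *NODAL*, 1.67 for *TDGF1* and 1.33 for *FOXH1*, so that 3 of the 5 genes were more than 2-fold higher, as were 6.25% of all genes tested. Markers of the AVE were higher in part: 5 of 9 were more than 2-fold higher (*OTX2*, *LHX1*, *GSC*, *SHISA2* and *FZD5*), with *GSC* at 152 CPM against 7.92 and *FZD5*, a Wnt receptor, at 1155 against 207. None of the 7 hypoblast markers was more than 2-fold apart, and *APOA1* was at 967 against 1709 CPM. The median depth was 12212 UMIs in the *CER1*-rich cells and 10787 in cells without.

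On D6 the *CER1*-rich cells were fewer and of another make-up. The 4 groups held 3358, 121, 55 and 33 cells, with *LEFTY1* at 140, 459.7, 825 and 597 CPM and *LEFTY2* at 5.28, 85.1, 188 and 372. *NODAL* was at 55.6, 86.9, 132 and 106 CPM. *LEFTY2* was 70.4-fold and *LEFTY1* 4.25-fold higher in the *CER1*-rich cells, while *NODAL* (1.90-fold), *TDGF1* (1.35-fold) and *FOXH1* (1.18-fold) were within 2-fold, and 17% of all genes passed 2-fold. Of the AVE markers 6 of 9 were more than 2-fold higher, among them *LHX1* at 609 CPM against 131.5. Of the streak and mesoderm markers 5 of 7 were higher too, with *HAND1* at 128 against 8.28 CPM and *MESP1* at 123 against 2.76, and 3 of 7 hypoblast markers were lower. The median depth of the *CER1*-rich cells was 16408 UMIs against 10788. The part of these other markers and of depth in the D6 values was not tested. In a group of 33 cells few UMIs sufficed for a sparse gene to pass 2-fold, so the 17% is not comparable with the share given for D4. No share of all genes more than 2-fold lower is given to set beside the 3 lower hypoblast markers.

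**Figure D4:**
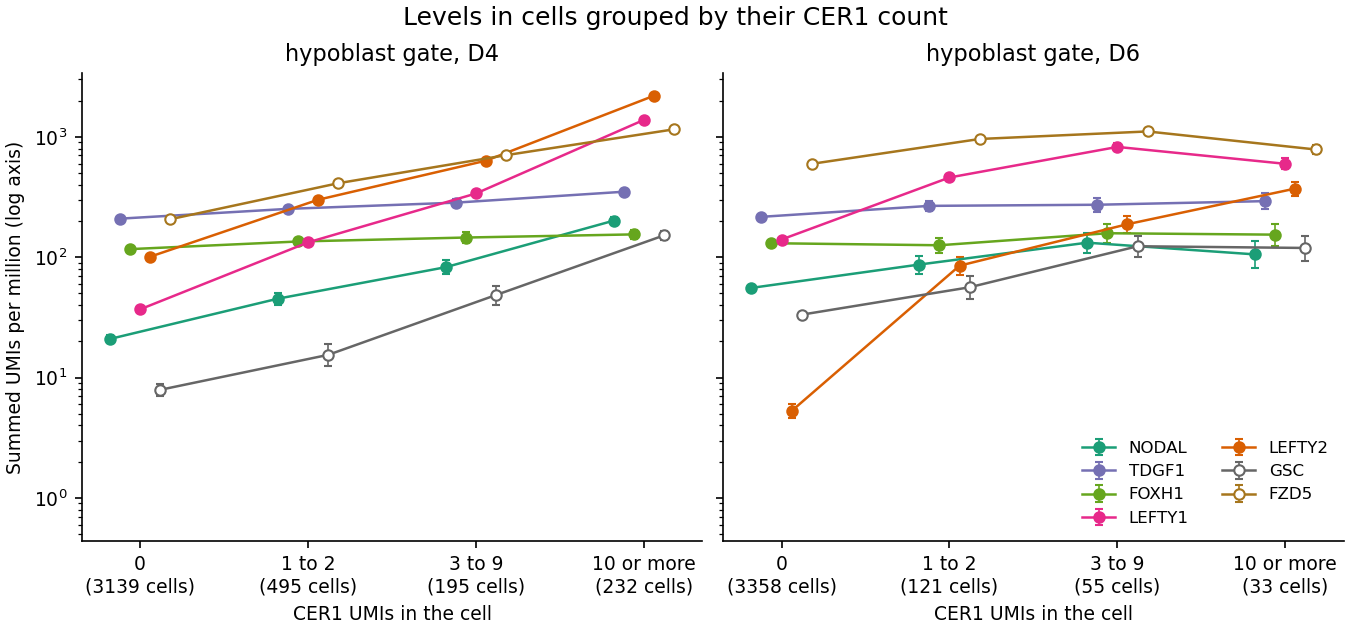
Levels (CPM, log axis) of the other 5 genes and of the markers *GSC* and *FZD5* in hypoblast-gate cells grouped by *CER1* UMIs (0, 1 to 2, 3 to 9, 10 or more) on D4 and D6, with exact Poisson 95% intervals. On D4 *LEFTY1* goes from 36.9 to 1383 and *LEFTY2* from 101 to 2196, while *TDGF1* goes from 209 to 350.

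*NODAL*-rich cells carried the antagonists in both gates. In the embryonic gate of D4 *LEFTY1* was at 60.3, 518, 911 and 983 CPM in cells with 0, 1, 2 and 3 or more *NODAL* UMIs (3480, 154, 52 and 30 cells), *LEFTY2* at 23.6, 171, 279 and 347 and *CER1* at 7.43, 66.9, 88.7 and 256. In contrast, *TDGF1* was at 186, 191, 191.5 and 156.5 CPM, with no order among the groups. *CER1* was 34.4-fold, *LEFTY1* 16.3-fold and *LEFTY2* 14.7-fold higher in cells with 3 or more *NODAL* UMIs than in cells without, and 17.9% of all genes passed 2-fold. Streak and mesoderm markers were higher for 5 of the 6 with enough counts, with *MIXL1*, a homeobox gene of the streak, at 32.0 CPM against 1.325. AVE markers were higher for 7 of 9. The whole gate held 18 UMIs of *HAND1*, 21 of *GSC* and 42 of *NOG*. For such sparse genes, also within the 17.9%, few UMIs in the 30 cells sufficed to pass 2-fold. Hypoblast markers were higher for 3 of 7, with *APOA1* at 95.9 against 18.5 CPM, and median depth was 20188 against 14990 UMIs. The part of the hypoblast transcripts in these values was not tested.

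On D6 only 16 embryonic-gate cells held 3 or more *NODAL* UMIs, against 4893 with none. *LEFTY1* was at 211 CPM in them against 7.54, *LEFTY2* at 145.5 against 2.02 and *CER1* at 161 against 1.07, and 27.7% of all genes passed 2-fold. All 7 streak and mesoderm markers were higher, with *MIXL1* at 155 against 1.69 CPM and *TBXT* (Brachyury) at 37.2 against 0.097. So were 6 of 7 hypoblast markers, with *APOA1* at 588 against 83.2 CPM. Of the AVE markers 6 of 9 were higher and 2 lower, and of the amnion markers 3 of 4 were higher. The whole gate held 59 UMIs of *DLX5* and 66 of *ISL1*. For such sparse markers few UMIs in the 16 cells sufficed to pass 2-fold, as for sparse genes within the 27.7%. No share of all genes more than 2-fold lower is given to set beside the 2 lower markers. The median depth was 21308 against 14195 UMIs. These few cells therefore held transcripts of several marker lists, and whether they were single cells was not tested.

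In the hypoblast gate 218 cells of D4 and 304 of D6 held 3 or more *NODAL* UMIs. On D4 *LEFTY1* was at 1177 CPM in them against 34.7 in the 3187 cells without *NODAL*, *CER1* at 1602 against 64.9 and *LEFTY2* at 1509 against 159, and 5.03% of all genes passed 2-fold. On D6 the folds were smaller, 5.79 for *LEFTY1* (494 against 85.3 CPM), 4.52 for *CER1* (90.6 against 20.1) and 3.39 for *LEFTY2* (40.1 against 11.8), and 2.1% of all genes passed. None of the 7 hypoblast markers was more than 2-fold apart on either day. AVE markers were higher for 7 of 9 on D4 and 3 of 9 on D6, *GSC* among them on both days.

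The genes most like each of the 6 in the hypoblast gate of D4, by Pearson's r over 4061 cells on a log scale among 12343 genes, are given by gene. *NODAL* was closest to *LEFTY1* (r = 0.57), *CER1* (0.47), *GSC* (0.41), *CYP26A1* (0.34) and *LEFTY2* (0.34). *CER1* was closest to *LEFTY1* (0.63), *LEFTY2* (0.61), *GSC* (0.52), *FREM1* (0.50) and *FGF17* (0.50). *LEFTY1* followed with *CER1*, *NODAL*, *GSC* (0.57), *LEFTY2* (0.49) and *FZD5* (0.47), and *LEFTY2* with *CER1*, *LEFTY1*, *FGF17* (0.48), *FZD5* (0.44) and *GSC* (0.42). For these 4 genes, others of the 4 were thus among the 5 nearest. For *TDGF1* the nearest were *CYP26A1* (0.31), *LINC00458* (0.22), *FZD5* (0.21), *RHOBTB3* (0.20) and *LAPTM4B* (0.20). *FOXH1* had no value above 0.15, with *LINC00458*, *BEX3*, *LAPTM4B*, *CYP26A1* and *CKB* as the nearest.

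On D6, over 3567 cells, some of these values were close to those of D4 and others far lower. *TDGF1* with *CYP26A1*, which encodes an enzyme that clears retinoic acid, had 0.31 on D4 and 0.34 on D6, and *CER1* with *FREM1* had 0.50 and 0.42. *LEFTY1* with *GSC* had 0.57 and 0.385. By contrast *CER1* with *FGF17* had 0.50 and 0.09, *NODAL* with *CER1* 0.47 and 0.10, and *NODAL* with *CYP26A1* 0.34 and −0.03. On thinned cells Spearman's rho of *CER1* with *LEFTY1* was 0.43 on D4 and 0.13 on D6, below the r of 0.63 and 0.185. All cells of a day share a library, and counts of these genes are sparse.

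Cells of neither gate also held the antagonists. On D4 *CER1* was at 315 CPM, *LEFTY2* at 269.5, *LEFTY1* at 186 and *NODAL* at 41.9 there, and on D6 at 82.6, 13.45, 108 and 36.9. In the D6 cells of neither gate 1 cell held 49.8% of the *LEFTY2* UMIs, and the level without it was 6.76. *CER1* was thus higher outside the gates than in the hypoblast gate on both days (213 and 40.2 CPM). On D4 so were *LEFTY1* (154 CPM in the hypoblast gate) and *NODAL* (39.3), but on D6 both were lower outside the gates. *LEFTY2* was lower there on both days. On D4 *CER1* was at 662 CPM in the 682 cells with *SOX2* at 0 and at most 2 *FN1* UMIs, where *NODAL* was at 62.9. It was at 685 CPM in the 44 cells with *SOX2* of at least 1, *FN1* of at most 2 and *POU5F1* under 5.

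Other cells were picked by a single marker, across the gates. On D6 the 103 cells with at least 3 UMIs of *HAND1*, a factor of mesoderm and amnion, held *CER1* at 540 CPM [504, 579], with a UMI in 41.75% of cells. Their *NODAL* was at 29.6, *LEFTY1* at 4.03 and *LEFTY2* at 2.02 CPM. *CER1* was thus present there with hardly any LEFTY transcript. Of these cells 36 were in the hypoblast gate, 8 in the embryonic gate and 59 in neither, so that they can share cells with the *CER1*-rich group of the hypoblast gate. The 181 cells with a *TBXT* UMI had *NODAL* at 75.6 CPM, in 46.4% of cells, with *CER1* at 116, *LEFTY1* at 128 and *LEFTY2* at 6.15. Of them 101 were in the hypoblast gate, 25 in the embryonic gate and 55 in neither. The whole hypoblast gate of D6 had *NODAL* at 59.0 CPM, in 31.3% of cells. The 434 cells with at least 2 UMIs of *TFAP2A*, an amnion and surface ectoderm factor, had *NODAL* at 11.0 CPM, *LEFTY1* at 12.1 and *CER1* at 1.55.

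The rest of the pathway was read from a list of 47 genes that includes the 6. Between gates on D4, 45 were tested, 3 were more than 2-fold higher in the embryonic gate and 18 lower, with a median log2 ratio of −0.68 against 0.05 over all genes. On D6, 2 of 45 were higher and 21 lower, with a median of −0.76 against 0.18. Without the 6 genes, 15 and 17 of 39 were lower. Between days 1 of 45 was higher on D6 and 9 were lower in the embryonic gate, and 5 of 44 were higher and 4 lower in the hypoblast gate. Without the 6 genes, 1 of 39 was higher and 5 were lower in the embryonic gate. In the hypoblast gate 5 of 38 were higher and 2 lower. Over all genes, 5.43% were higher and 2.02% lower in the embryonic gate, and 6.4% and 6.02% in the hypoblast gate. In the embryonic gate *INHBB* rested on 10 and 22 UMIs and *TGFB2* on 6 and 15, D6 before D4.

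Among the ligands, *GDF3*, a relative of Nodal that shares its co-receptors, was at 19.6 and 18.1 CPM in the embryonic gate on D4 and D6 and at 10.8 and 206 in the hypoblast gate. Its day ratio in the hypoblast gate was the highest of the 5 ligands tested, 4.26 on the log2 scale [4.13, 4.39], and *NODAL*-rich cells there held 342 CPM of it on D6 against 164 in cells without *NODAL*. *TGFB1* was at 21.9 and 66.2 CPM on D4 and at 17.7 and 95.3 on D6, embryonic before hypoblast gate. *CFC1*, the other EGF-CFC co-receptor tested, was at 0.363 and 16.4 CPM on D4 and 0.508 and 16.3 on D6, so that it was near 0 in the embryonic gate while *TDGF1* was not.

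Receptors, convertases and transducers were mostly within 2-fold. Of 7 receptors 0 were more than 2-fold apart between gates on D4 and 2 were lower in the embryonic gate on D6. *ACVR2B* was at 75.4 and 69.4 CPM on D4 and 76.9 and 71.3 on D6, and *TGFBR1* at 16.4, 25.2, 15.7 and 27.5 in the same order. *FURIN*, a convertase that cleaves the Nodal precursor, was at 15.5 and 31.1 CPM on D4 and 13.5 and 32.0 on D6. *SMAD2* lay between 52.5 and 65.4 CPM in the 4 groups. *INHBB*, *SMAD3* and *NANOG*, the 3 listed genes more than 2-fold higher in the embryonic gate on D4, were named after their values were seen, and *INHBB* rested on 22 and 2 UMIs.

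Targets lay mostly on the side of the hypoblast gate. Of 8 targets 7 were more than 2-fold lower in the embryonic gate on both days, and *NANOG*, the pluripotency factor, was higher there, at 53.9 against 7.71 CPM on D4 and 63.8 against 13.0 on D6. *EOMES* was at 5.47 and 127.8 CPM on D4 and at 3.85 and 175.5 on D6, embryonic before hypoblast gate, and *FOXA2* at 3.36 and 129 and at 1.28 and 145. Several of these targets, *FOXA2* among them, are also endoderm genes. Inhibitors were less one-sided: of the 4 secreted antagonists outside the 6 genes 2 were more than 2-fold lower in the embryonic gate on each day, and of 7 intracellular inhibitors 1 was on D4 and 2 on D6, with 0 higher. The activin antagonist *FST* was at 59.8 and 346 CPM on D4 and 52.7 and 649 on D6, and *BAMBI*, a decoy receptor, at 65.2 and 153 and at 59.3 and 226. *SKIL*, a repressor of SMAD activity, was within 2-fold, at 173 and 198 CPM on D4 and 262 and 229 on D6.

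**Figure D5:**
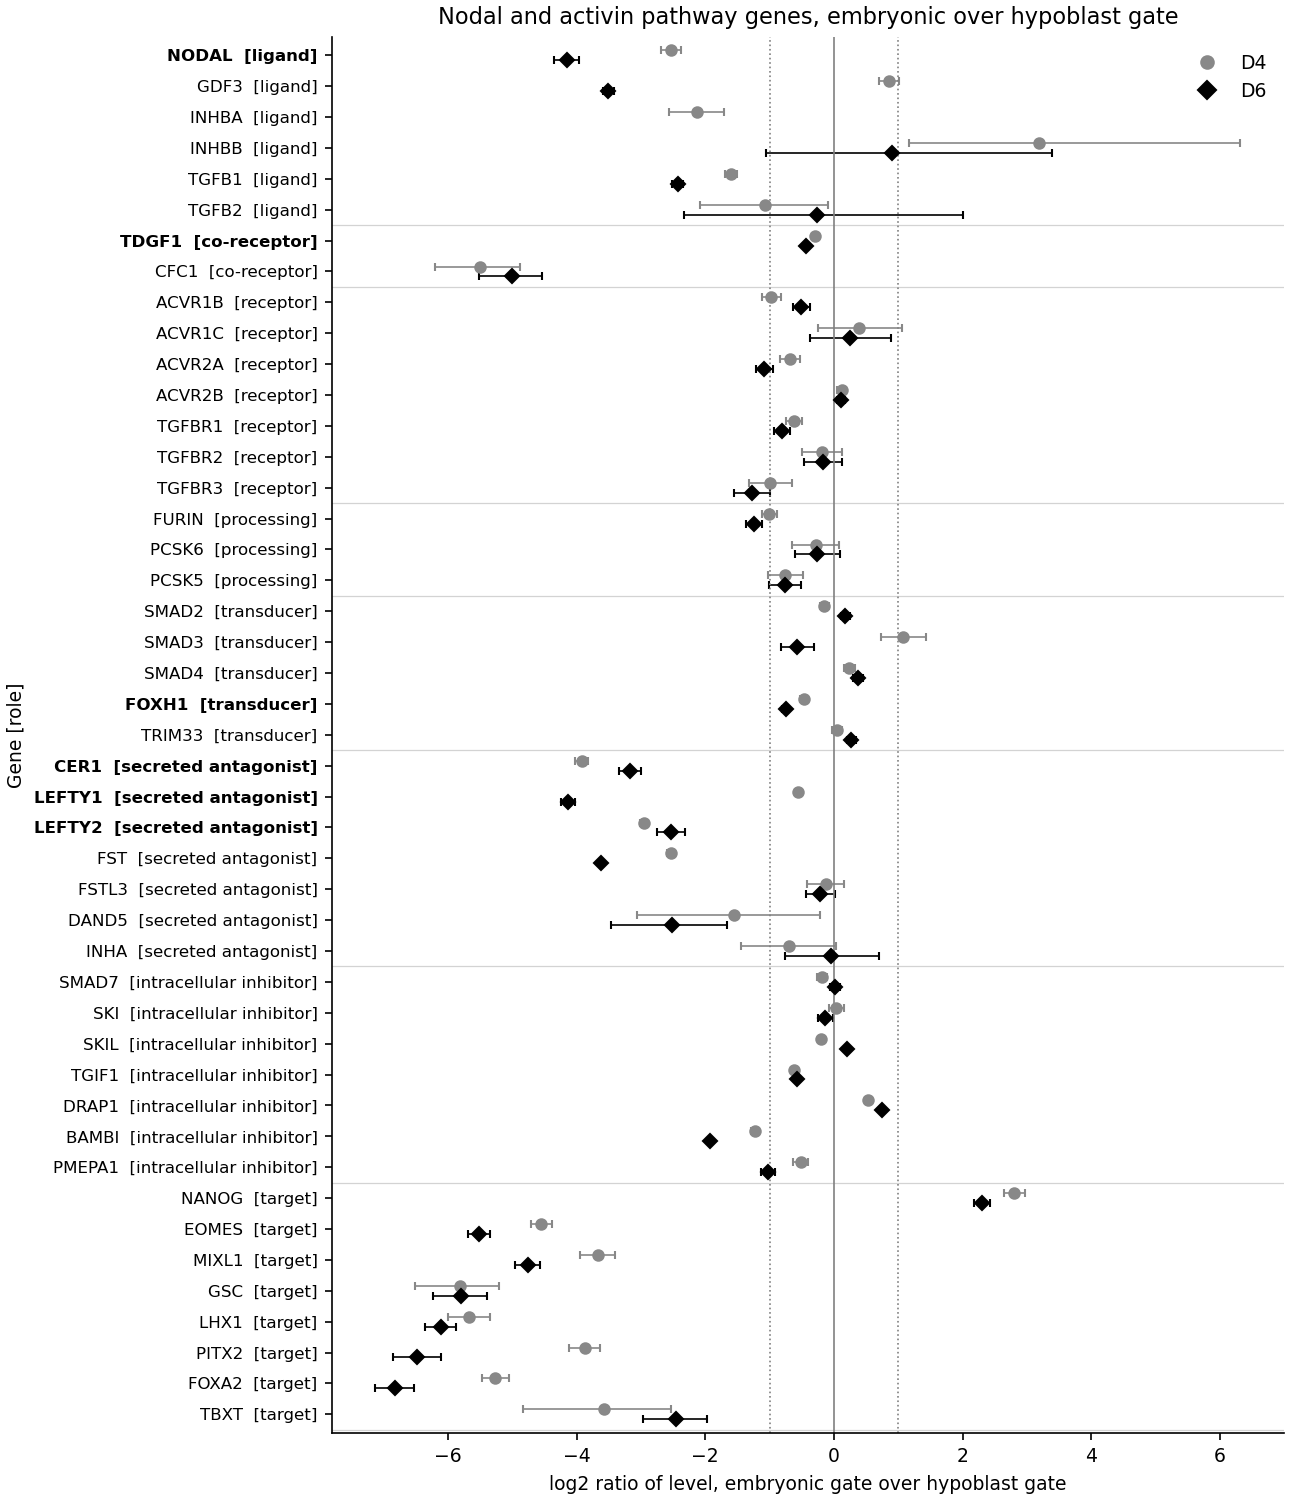
Log2 ratio of the embryonic over the hypoblast gate for the genes of the pathway list on D4 and D6, grouped by role, with the 6 genes described marked, and without *GDF1* and *CFC1B* (under 10 UMIs) and *INHBA* on D6 (no UMI in the hypoblast gate). All 7 receptors lie within the dotted 2-fold lines on D4, and the 7 targets other than *NANOG* lie below the lower line on both days.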

How the data were processed

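The authors aligned 10x 3′ reads to hg38 with Cell Ranger 6.0.1 and deposited filtered matrices of UMI counts per gene and cell, 1 library per day. Seurat 4.0.1 and R 4.0.3 stand in the submitters' processing notes. The 7 bisulfite libraries were not analysed here. In Python 3.11.15 (numpy 2.4.6, scipy 1.17.1, pandas 2.3.3, matplotlib 3.10.9) cells with 3430 to 27500 UMIs and at most 10% MT- UMIs were kept and gated on *POU5F1*, *SOX2* and *FN1*. No doublet caller was run, the upper UMI limit and the gates being the only steps against doublets. Counts were summed per gate and divided by the gate's total UMIs (CPM), and genes with at least 10 UMIs over both groups were tested against a 2-fold limit. For detection, cells were thinned to 3430 UMIs with a fixed seed. Correlations used log2(1 + UMIs per 10000) over genes found in at least 2% of the gate's cells on both days. Scripts were tested on simulated data. The members, gates, lists and tests were chosen with earlier results of these data known. Genes named were the 6 described, the 2 highest of each pathway role, the 5 most correlated with each of the 6 and markers that carry a result. Alternatives changed the cell filter, mitochondrial limit, gates, measure of level, depth, scaling and gene minimum. Promoters came from RefSeq (GRCh38.p14) and LEFTY transcripts from GENCODE v44lift37.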

Additional observations from a re-analysis of the deposited data

Results flagged for a closer look

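For 3 of the 6 genes the D6 over D4 ratios went opposite ways in the gates, each with an interval that left out 0. The log2 ratio of the hypoblast gate minus that of the embryonic gate was 1.62 for *NODAL*, 3.57 for *LEFTY1* and 0.28 for *FOXH1*. With 1 library per day the difference was not tested. The *FOXH1* ratios, −0.19 and 0.09, were within 2-fold in both gates. Under the alternatives below, its hypoblast ratio fell to 0.02 when mitochondrial and ribosomal protein genes were left out of the total. That of *LEFTY1* fell to 0.03 with cells thinned. Both were below their counting intervals but still above 0. The hypoblast ratio of *NODAL* ran from 0.51 to 0.97.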

How the results depend on the processing

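No paired analysis was possible because each day had 1 library and the labels give no replicates, and for the same reason no library could be left out. None of the 24 log2 ratios of the 6 genes between gates or days changed direction under any of 11 alternatives. Among these, the 2 changes of gene minimum cannot alter a ratio, so they carry no weight here. Of the counts of genes past 2-fold or of pairs past 2 times the product, 151 stayed within 1.5 times the value given and 5 did not. In the pathway list 1 gene was higher on D6 in the embryonic gate, and this became 3 with no cell filter, 2 with stricter gates and 2 with cells thinned. The 2 listed genes higher in the embryonic gate on D6 became 1 with cells thinned and 1 with a minimum of 50 UMIs. Single values moved more often, and 161 of them were counted as moved. These include all correlations, which had no counting interval and were counted as moved whenever rho kept the sign of r. The others lay outside their counting interval. The embryonic D6 over D4 log2 ratio of *NODAL* ran from −1.28 to −0.80 and missed 2-fold with an MT- share of at most 5%. That of *CER1* ran from −3.33 with gates applied to thinned cells to −1.53. That of *LEFTY2* ran from −4.33 to −3.05. The D6 ratio of embryonic over hypoblast gate ran from −5.13 with stricter gates to −2.80 for *CER1* and from −2.88 to −1.61 for *LEFTY2*. The D4 ratio of *LEFTY1* ran from −0.78 to −0.04 and that of *CER1* from −4.75 to −3.16, and the hypoblast D6 over D4 ratio of *LEFTY2* from −5.17 to −4.11. The cause of these moves was not tested. The counting interval of the embryonic day ratio of *NODAL*, −1.27 to −0.80, was about as wide as its range. For the other ratios listed the counting intervals were narrower than the ranges. The spread between libraries of 1 day could not be measured.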
